A study of Caenorhabditis elegans with 6 samples.

Results

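Of 45510 genes in the tables, 146 genes classed as protein-coding had more antisense small RNA counts with the Argonaute protein NRDE-3 in mutant Caenorhabditis elegans larvae. Their counts were at least 2-fold higher in both the susi-2 and the susi-3 mutant than in the control. Members were chosen from these measurements. Each is classed as protein-coding and lies outside the rpl-, rps-, his-, col-, bath-, math- and F-box gene families. Its log2((CPM + 1)/(CPM + 1)) over the control immunoprecipitate (IP) was at least 1 in the IPs of both mutants. The member anr-39 is described as an antisense RNA despite its class. CPM is the antisense count of a gene per 1000000 sense plus antisense counts of its library. At least 50 antisense counts over each pair of IP libraries and over 10 in at least 1 total small RNA library were also required. Of 19819 protein-coding genes outside these families, 2215 had enough antisense counts in both IP pairs, 1673 of those were over the minimum in a total library, and 146 of those passed both thresholds. Without the minimum in total small RNA 265 genes passed both IP thresholds, and those under it are not members.

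The mutant groups were L3 larvae of eri-1(mg366) with susi-2(ust49) and of eri-1(mg366) with susi-3(ust51), and the control was eri-1(mg366) without either susi mutation. All 3 strains carried NRDE-3 with a FLAG and GFP tag, all came from 15 °C, and each gave 1 NRDE-3 IP library and 1 total small RNA library. Every strain thus carries the eri-1 mutation, so no library shows a worm with its normal set of endogenous siRNAs, and an IP from worms without tagged NRDE-3 was not analysed here. With 1 library per group no difference has a replicate check and no test between genotypes is possible. The 95% intervals of ratios given below are exact conditional intervals of 2 counts and cover counting error only, as do the floors of a count of 0. Fewer cells making a small RNA and fewer copies per cell cannot be told apart in whole larvae.

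NRDE-3 is a nuclear Argonaute protein of somatic cells. It binds secondary siRNAs, which RNA-dependent RNA polymerases copy from a target transcript and which are therefore antisense to it, and the loaded protein enters the nucleus and inhibits transcription of the matching gene. In eri-1 mutants NRDE-3 loses its usual endogenous siRNAs, which leaves it free to take up others. The susi genes are known as suppressors of siRNAs against ribosomal RNA. susi-2 is rrp-8, which encodes a methyltransferase of ribosomal RNA, and susi-3 is riok-1, which encodes a kinase of the RIO family that acts in maturation of the small ribosomal subunit. The tables give no read lengths, so antisense counts on these genes could not be restricted to the length of secondary siRNAs.

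Total counts per library ranged from 9122066 to 10755494, so that 1 count was worth 0.0930 to 0.110 CPM. Antisense counts made up 23.2% of the susi-2 IP, 10.8% of the susi-3 IP and 11.8% of the control IP, and 17.6%, 20.0% and 25.97% of the susi-2, susi-3 and control total libraries. Sense counts of rrp-8 were 10 in the susi-2 total library, 36 in that of susi-3 and 30 in that of the control. Those of riok-1 were 138, 89 and 94 in the same libraries. The lesions of the alleles were not given in the sources used here, which limits what these counts say about the genotypes.

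The members' antisense counts were several-fold higher in both mutant IPs than in the control IP. Together they summed to 77039 counts (8445 CPM) in the susi-2 IP and 96934 counts (10196 CPM) in the susi-3 IP, against 12339 counts (1147 CPM) in the control IP. They were 3.63% of all antisense counts in the susi-2 IP and 9.48% in the susi-3 IP, against 0.973% in the control IP. One gene, clec-72, carried much of these sums, with 2120 CPM, 3947 CPM and 550.8 CPM in the susi-2, susi-3 and control IPs. Without it the members summed to 6326 CPM in the susi-2 IP and 6249 CPM in the susi-3 IP, against 596.4 CPM in the control IP, ratios of 10.6 (10.3 to 10.9) and 10.5 (10.2 to 10.8). With clec-72 the ratios were 7.36 (7.22 to 7.50) and 8.89 (8.72 to 9.06).

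These differences chose the members and are given as description. Among all genes with enough counts, 45.8% passed 2-fold upwards in the susi-2 IP, 11.8% in the susi-3 IP and 10.7% in both, while 5.34% and 23% passed it downwards in susi-2 and susi-3. Among the protein-coding genes eligible for the rule the share higher in both was 12%. The members' log2 ratios lay between 1.06 and 6.88 in the susi-2 IP, with a median of 2.24 against 0.92 for all genes, and between 1.00 and 6.83 in the susi-3 IP, with a median of 2.03 against −0.37 for all genes. Scaling by TMM moved the point of no change by 1.09 in the susi-2 IP and by −0.46 in the susi-3 IP on the log2 scale. Just inside the threshold, the smaller of the 2 log2 ratios was 1.06 for fli-1, 1.04 for plc-2, 1.04 for tlk-1 and 1.00 for lip-1. Summed counts of 2 members, lip-1 and pitr-1, include a transcript row classed as noncoding RNA. That row of lip-1 had 8 antisense counts in each mutant IP and 4 in the control IP. Without that row lip-1 would fall outside the threshold. Just outside the threshold were duox-2 (1.15 in susi-2 and 0.99 in susi-3), eif-3.H (1.11 and 0.98), attf-4 (1.52 and 0.98) and W03F9.2 (0.97 and 1.07).

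Chromatin genes made up 11 members. nurf-1, which encodes the largest subunit of the nucleosome remodelling factor NURF, had 630 CPM in the susi-2 IP and 954 CPM in the susi-3 IP, against 12.6 CPM in the control IP. The ratios were 49.8 (42.0 to 59.5) and 75.5 (63.7 to 90.1). Its total levels were 26.6 CPM in susi-2 and 20.2 CPM in susi-3, against 34.6 CPM in the control, ratios of 0.770 (0.656 to 0.902) and 0.584 (0.489 to 0.696). By CPM, the mutant libraries were therefore high in the IP and below the control library in total small RNA. All genes with enough counts also lay mostly below it there, with median log2 ratios of −0.60 in susi-2 and −0.56 in susi-3. TMM scaling moved the point of no change there by −0.70 and −0.63 on the log2 scale. How far nurf-1 lies below the control in total small RNA thus depends on scaling. Sense counts of nurf-1 in the IPs were 403 in susi-2 and 564 in susi-3, against 558 in the control. The antisense strand thus held 93.4% and 94.1% of the gene's counts in the mutant IPs and 19.6% in the control IP.

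**Figure D1:**
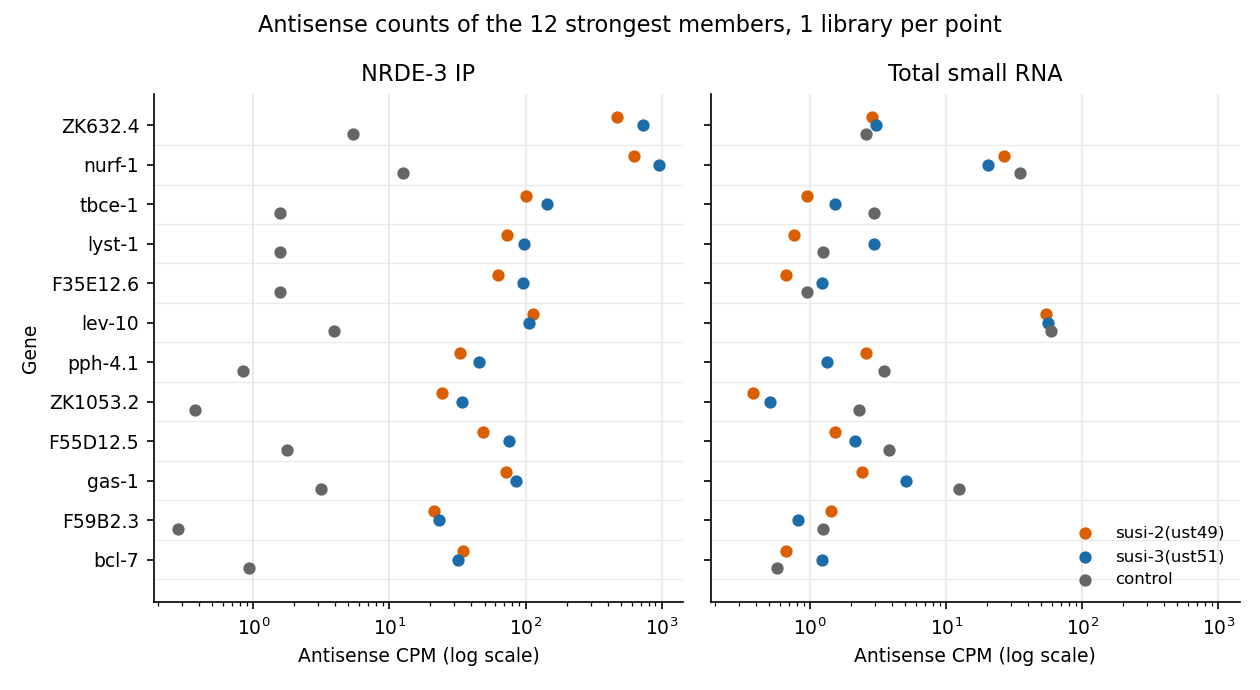
Antisense CPM on a log axis of the 12 members with the highest smaller IP ratio, with 1 point per library, in the NRDE-3 IP (left) and in total small RNA (right). In the IP panel both mutant points of nurf-1 lie at 630 CPM and 954 CPM against 12.6 CPM in the control, and in the total panel its 3 points lie between 20.2 and 34.6 CPM.

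The counts of nurf-1 were not spread over its 11 transcript rows. Rows a, b, c, i and k together had 5697 antisense counts in the susi-2 IP and 9053 in the susi-3 IP, against 100 in the control IP, ratios of 67.2 (55.1 to 82.7) and 102 (84.1 to 126). Rows d, e, f, g, h and j had 52 and 21 in the susi-2 and susi-3 IPs, against 36 in the control IP, ratios of 1.70 (1.09 to 2.68) and 0.660 (0.366 to 1.16). Both groups of rows were present in total small RNA, with 232 and 147 counts in susi-2 and susi-3 against 290 in the control for the first group, and 47 and 52 against 74 for the second. How reads shared by several transcripts were divided among rows is not given in the sources used here.

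**Figure D2:**
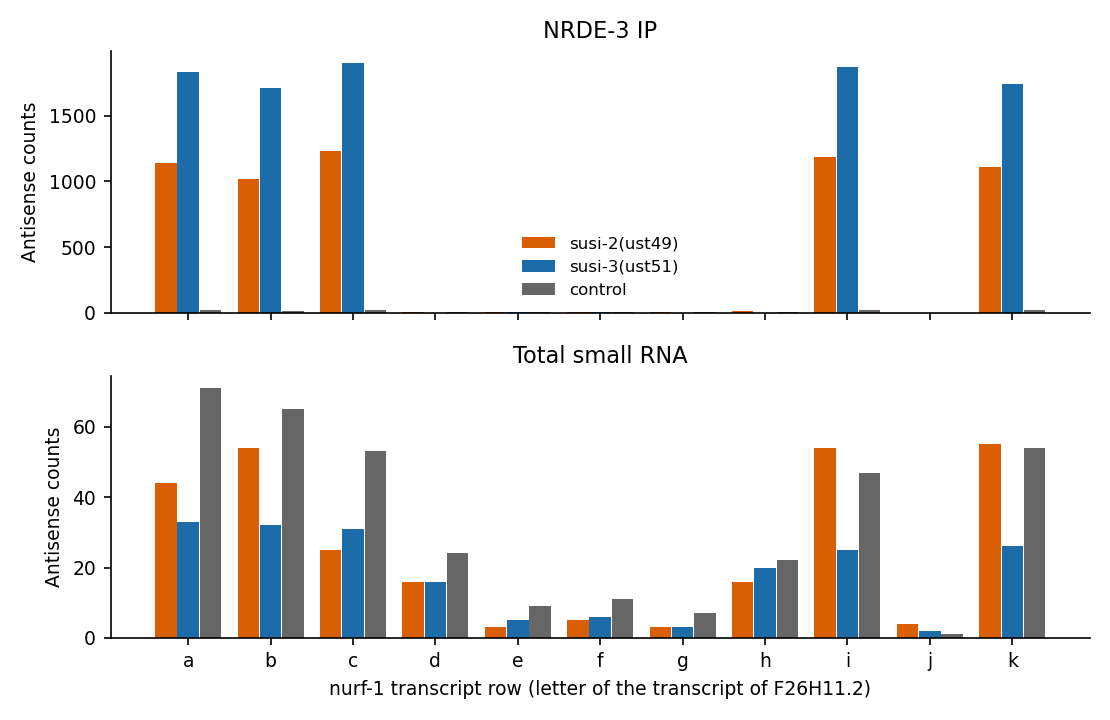
Antisense counts of each nurf-1 transcript row in the NRDE-3 IPs (upper panel) and in total small RNA (lower panel), with 1 bar per library and bars from 0. Rows a, b, c, i and k hold 5697 and 9053 counts in the susi-2 and susi-3 IPs against 100 in the control IP, while the other 6 rows hold 52 and 21 against 36.

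Other chromatin members were lower in level. bcl-7, whose mammalian relatives encode subunits of SWI/SNF remodelling complexes, had 34.4 CPM in the susi-2 IP and 32.0 CPM in the susi-3 IP, against 0.930 CPM in the control IP. lin-49, which encodes a bromodomain protein, had 63.7 CPM and 84.4 CPM in the mutant IPs of susi-2 and susi-3, against 6.23 CPM in the control IP. The histone demethylase gene rbr-2 had 18.4 CPM in susi-2 and 25.6 CPM in susi-3, against 1.302 CPM in the control. These 3 and nurf-1 were the chromatin members with a log2 ratio of 3 or more, or 8-fold, in both IPs. The median log2 ratio of the 11 was 2.48 in the susi-2 IP and 2.24 in the susi-3 IP, and −0.48 and −0.75 in total small RNA. The histone methyltransferase gene met-2, at 54.04 CPM and 57.0 CPM in the susi-2 and susi-3 IPs against 6.04 CPM in the control IP, was among the other 7.

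Signalling genes also made up 11 members, of which pph-4.1 and wnk-1 were at least 8-fold higher in both IPs. pph-4.1, the catalytic subunit of protein phosphatase 4, had 33.2 CPM in the susi-2 IP and 45.1 CPM in the susi-3 IP, against 0.837 CPM in the control IP. wnk-1, a WNK kinase, had 183 CPM and 245 CPM in the susi-2 and susi-3 IPs, against 15.2 CPM in the control IP. Among 10 members of the cytoskeleton and cell surface, tbce-1, lev-10 and ced-5 passed 8-fold in both IPs. tbce-1, a tubulin folding cofactor, had 101 CPM in the susi-2 IP and 144 CPM in the susi-3 IP, against 1.58 CPM in the control IP. lev-10, whose product clusters acetylcholine receptors at neuromuscular junctions, had 112 CPM and 106 CPM in the susi-2 and susi-3 IPs, against 3.90 CPM in the control IP, while its total levels were 54.1, 55.8 and 58.9 CPM in susi-2, susi-3 and the control. The 3 total libraries of lev-10 thus lay close together while its IP libraries did not. ced-5, a homologue of DOCK180 that acts in engulfment of dying cells, had 34.3 CPM in the susi-2 IP and 47.4 CPM in the susi-3 IP, against 2.88 CPM in the control IP.

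Membrane traffic gave 9 members, of which lyst-1, a homologue of the lysosomal trafficking regulator, and tbc-2, a Rab GTPase-activating protein, passed 8-fold in both IPs. lyst-1 had 72.6 CPM in the susi-2 IP and 97.4 CPM in the susi-3 IP, against 1.58 CPM in the control IP. Metabolism gave 4 members. One of them, gas-1, a subunit of mitochondrial complex I, had 71.6 CPM in susi-2 and 84.5 CPM in susi-3, against 3.16 CPM in the control, in the IPs. Total levels of gas-1 were 2.39 CPM in susi-2 and 5.08 CPM in susi-3, against 12.4 CPM in the control. Its 2 mutant libraries were thus above the control in the IP and below it in total small RNA.

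Translation and ribosome maturation gave 7 members with median IP log2 ratios of 2.50 in susi-2 and 1.37 in susi-3, and RNA metabolism gave 6 with 2.36 and 1.402, and nuclear transport 3 with 2.01 and 1.28. None of them was 8-fold higher in both IPs. The medians over all genes were 0.92 in susi-2 and −0.37 in susi-3, and these are the ratios that the rule used. eef-2, translation elongation factor 2, had 116 CPM in the susi-2 IP and 68.2 CPM in the susi-3 IP, against 9.30 CPM in the control IP. The remaining 85 members were given no role. The role groups were made with the values known and are not lists of equal standing to an annotation.

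Among the genes without a role, ZK632.4 had the highest smaller log2 ratio of all 146, at 6.21 in susi-2 and 6.83 in susi-3. It had 472 CPM in the susi-2 IP and 727 CPM in the susi-3 IP, against 5.39 CPM in the control IP, ratios of 87.6 (67.6 to 116) and 135 (104 to 178). Its total levels were 2.87, 3.05 and 2.57 CPM in susi-2, susi-3 and the control, and the counting intervals of its total ratios, 0.641 to 1.95 in susi-2 and 0.682 to 2.07 in susi-3, include no change. F35E12.6, with 62.9 CPM in susi-2 and 95.3 CPM in susi-3 against 1.58 CPM in the control, F55D12.5, with 48.6 CPM and 75.2 CPM against 1.77 CPM, and ZK1053.2, with 24.4 CPM and 34.2 CPM against 0.372 CPM, completed the strongest 12 together with F59B2.3. F59B2.3 had 21.2 CPM in the susi-2 IP and 23.0 CPM in the susi-3 IP, against 3 counts in the control IP, and its ratios of 75.9 (25.6 to 371) in susi-2 and 82.6 (27.9 to 404) in susi-3 are correspondingly wide. C40A11.6 and C40A11.7, which lie close to each other in the gene order of RefSeq, had near-equal counts in each mutant IP, 2572 (282 CPM) and 2462 (269.9 CPM) in susi-2 and 4038 (425 CPM) and 3946 (415 CPM) in susi-3, against 22.04 CPM and 24.2 CPM in the control IP. Whether they share reads is not given in the sources used here, and their values are uncertain for that reason. spe-41, a calcium channel of sperm, had 97.8 CPM in the susi-2 IP and 160.1 CPM in the susi-3 IP, against 16.2 CPM in the control IP.

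How the mutant IPs compared with each other depended on the scaling. With CPM over all counts the susi-2 IP was the higher of the 2 mutant IPs for 75 members and the susi-3 IP for 71. The median log2 ratio of the susi-2 over the susi-3 IP was 0.02 over the members and 1.06 over all genes with enough counts, of which 53.3% were at least 2-fold higher in susi-2 and 0.199% in susi-3. With TMM scaling 6 members were higher in susi-2 and 140 in susi-3, with a median of −1.53, and with CPM over antisense counts 11 were higher in susi-2 and 135 in susi-3, with a median of −1.06. A low ratio in either mutant kept a gene out of the set, so genes higher in 1 mutant alone are absent by the rule. The rule set no upper limit, so a member can be far higher in 1 mutant than in the other. By CPM, 27 of the 30 members at least 8-fold higher in both IPs had more in susi-3, with a median susi-2 to susi-3 ratio of 0.739, as had 20 of the 37 members with a smaller log2 ratio of 2 to 3, with a median of 0.969, and 24 of the 79 below that, with a median of 1.17. The classes were made from the same IP ratios, and a gene far higher in 1 mutant falls into a low class by its making, so nothing is read from them.

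**Figure D3:**
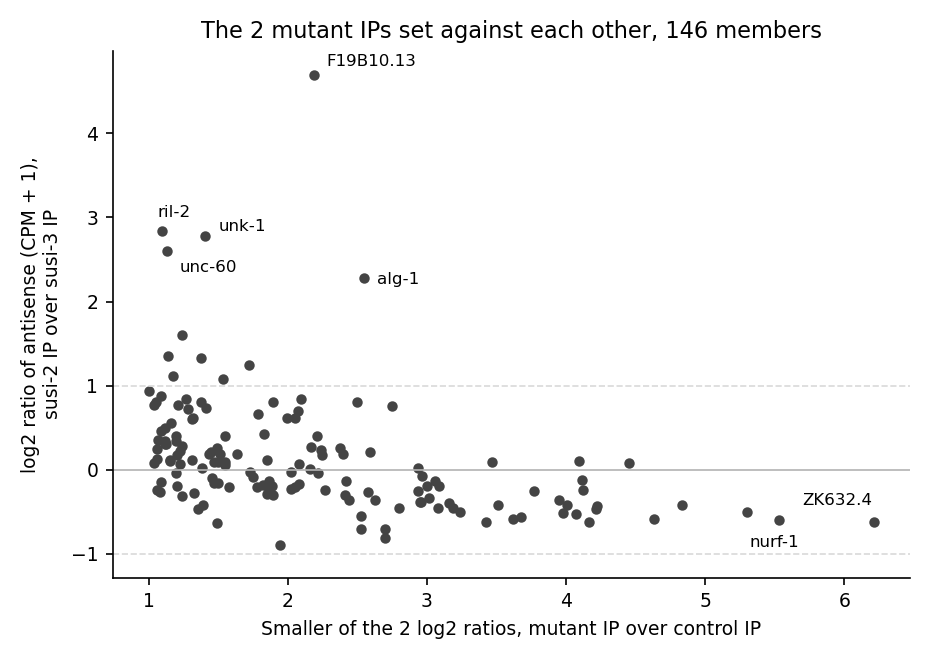
Log2 ratio of antisense (CPM + 1) in the susi-2 IP over the susi-3 IP of 146 members, against the smaller of their 2 log2 ratios over the control IP, with 1 point per gene and dashed lines at 2-fold. Of the 30 genes at 3 or more on the horizontal axis, 27 lie below 0, and F19B10.13, ril-2, unk-1, unc-60 and alg-1 lie highest. CPM over all counts is plotted, and with TMM scaling the median of the members is −1.53 in place of 0.02.

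By CPM over all counts, F19B10.13 had by far the highest susi-2 to susi-3 ratio of the members, and lower ratios followed in a graded tail. F19B10.13 had 249 CPM in the susi-2 IP, 8.63 CPM in the susi-3 IP and 1.12 CPM in the control IP, a susi-2 to susi-3 ratio of 28.8 (23.1 to 36.4). The ratio was 8.57 (6.18 to 12.2) for ril-2, 7.65 (5.99 to 9.89) for unk-1 and 6.41 (5.37 to 7.71) for unc-60, which encodes cofilin, a regulator of actin filaments. The transcript rows of unc-60 differed. The 3 rows at least 2-fold higher in both IPs had 136 and 74 antisense counts in the susi-2 and susi-3 IPs, against 15 in the control IP. Its other rows had 744 and 69, against 53, ratios to the control of 16.6 and 1.47. In all, 11 members (7.53%) had a susi-2 IP level at least 2-fold above the susi-3 IP level, and 0 the reverse, by CPM over all counts. Among all genes with enough counts the shares were 53.3% and 0.199%, so such a ratio was less frequent among the members. With TMM scaling these counts were 4 and 115. The lowest ratio was 0.537 (0.528 to 0.546), that of clec-72, a gene with a C-type lectin domain. clec-72 had the highest control IP level of the members, and with TMM scaling its log2 ratio in the susi-2 IP, 1.94 as reported, was 0.85 and under the threshold.

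In total small RNA, which the rule used for a minimum count alone, the members did not follow the IP. Their antisense counts summed to 959.6 CPM in susi-2 and 910.9 CPM in susi-3, against 1304 CPM in the control, ratios of 0.736 (0.717 to 0.755) and 0.699 (0.680 to 0.718). The median member had 2.82 CPM in susi-2 and 2.95 CPM in susi-3, against 4.33 CPM in the control. With at least 50 antisense counts over the pair, 3 of 92 members passed 2-fold upwards in the susi-2 total library (3.26%, against 3.94% of all genes) and 14 were at least 2-fold lower (15.2%, against 25% of all genes). In the susi-3 total library 3 of 99 were higher (3.03%, against 5.48%) and 18 were lower (18.2%, against 18.5%). The median log2 ratio was −0.51 for the members and −0.60 for all genes in susi-2, and −0.57 and −0.56 in susi-3. With TMM scaling, which moved the point of no change by −0.70 in susi-2 and −0.63 in susi-3, the members' medians turned to 0.18 and 0.05. Over the members as a whole, the higher IP values thus had no counterpart of similar size in total small RNA. A closer reference is the 1673 protein-coding genes that met the same count minimums, members included. Their median log2 ratios were lower, at −0.66 in susi-2 and −0.65 in susi-3. Of those with enough counts over the pair, 1.32% and 2.03% passed 2-fold upwards in susi-2 and susi-3. Beside this set the members lay slightly higher in total small RNA, a difference that was not tested.

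**Figure D4:**
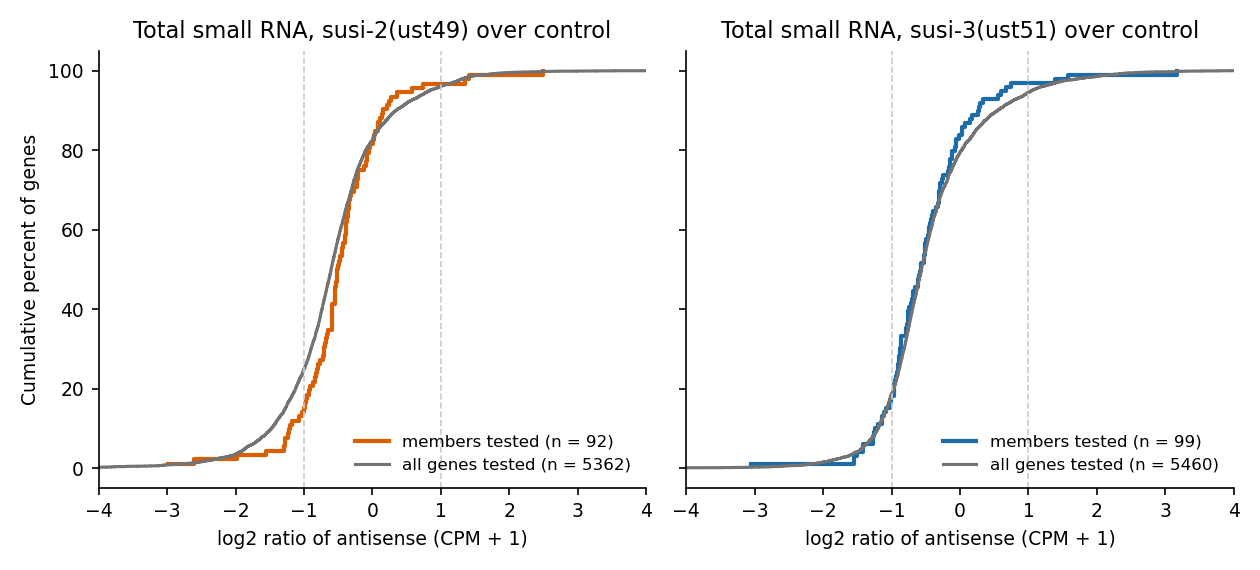
Cumulative percent of genes by log2 ratio of antisense (CPM + 1) in total small RNA, susi-2 over control (left) and susi-3 over control (right), for the members (coloured) and for all genes with at least 50 counts over the pair (grey), with dashed lines at 2-fold. The medians of the members, −0.51 and −0.57, lie beside those of all genes, −0.60 and −0.56.

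alg-1, which encodes an Argonaute protein of the microRNA pathway, was one of the exceptions. It had 1057 CPM in the susi-2 IP and 216 CPM in the susi-3 IP, against 36.1 CPM in the control IP, ratios of 29.3 (26.5 to 32.5) and 5.99 (5.38 to 6.70). In total small RNA it had 26.2 CPM in susi-2 and 42.2 CPM in susi-3, against 3.81 CPM in the control, ratios of 6.88 (4.92 to 9.84) and 11.1 (7.9999 to 15.7). Both mutants were thus above the control in both fractions, with susi-2 the higher in the IP and susi-3 the higher in total small RNA. F39G3.2 had 25.98 CPM in the susi-2 IP and 21.5 CPM in the susi-3 IP, against 4.00 CPM in the control IP, and in total small RNA 91.7 CPM and 90.1 CPM against 33.8 CPM. It was higher in total small RNA than in the IP in every genotype. Y105C5A.13 had 19 counts in the susi-2 and 19 in the susi-3 total library, against 3 in that of the control. It was over the minimum of 10 counts through the mutant libraries alone, as were 14 members in all, so a value above the control was favoured by that filter. T12D8.9, at 14.7 CPM in the susi-2 total library and 9.25 CPM in that of susi-3 against 5.14 CPM in that of the control, unk-1, at 1.34 CPM and 1.73 CPM against 0.571 CPM, and C40A11.7, at 25.7 CPM and 25.2 CPM against 16.8 CPM, were the next highest. The values of unk-1 rest on few counts, and it too is among the 14 members over the minimum through the mutant libraries alone. Of the 91 members with at least 50 counts in both total pairs, 2 were at least 2-fold higher in both, or 2.20%, against 1.72% of all genes.

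Y70G10A.3 had the lowest total log2 ratios of the members, −2.99 in susi-2 and −3.06 in susi-3. It had 8.88 CPM in the susi-2 total library and 8.43 CPM in that of susi-3, against 77.7 CPM in that of the control, ratios of 0.114 (0.0912 to 0.142) and 0.109 (0.0855 to 0.136). Its IP values were 21.0 CPM in susi-2 and 15.7 CPM in susi-3, against 2.60 CPM in the control. T14G8.3 had 2.29 CPM in susi-2 and 5.89 CPM in susi-3, against 19.1 CPM in the control, in total small RNA. The other members among the 6 lowest by the larger of the 2 total log2 ratios were Y53G8AM.8, D1007.8, C25G4.7 and hcf-1, which encodes the host cell factor homologue. Y53G8AM.8 had 38.8 CPM in susi-2 and 35.1 CPM in susi-3, against 94.9 CPM in the control, and D1007.8 had 2.01 CPM and 1.52 CPM against 6.37 CPM. C25G4.7 was near the level of a few counts, at 0.382 CPM and 0.305 CPM against 2.19 CPM. C25G4.7, ZK1053.2 and F42A6.1, which were also at least 2-fold lower in both total pairs, are among 15 members over the minimum of 10 counts in the control alone, so a value below the control was favoured by that filter. Total levels of hcf-1 were 6.97 CPM in susi-2 and 6.71 CPM in susi-3, against 17.6 CPM in the control. At least 2-fold lower in both total pairs were 6 of the 91 members with enough counts, or 6.59%, against 8.42% of all genes, and 9 of all 146. With TMM scaling Y70G10A.3 alone of the 9 stayed at least 2-fold lower in both.

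Relative to total small RNA of their own genotype, the members' antisense counts lay mostly above in the mutant IPs and mostly below in the control IP. With at least 50 counts over both libraries of a genotype, the susi-2 IP was at least 2-fold above the total library for 107 of 145 members and below it for 5, with a median log2 ratio of 2.16, against 31.4% above and 31.7% below among all genes. In susi-3 97 of 145 were above and 5 below, with a median of 1.73, against 15% and 65.8% of all genes. In the control 13 of 99 were above and 64 below, with a median of −1.35, against 11.9% and 70.8% of all genes. Over all 146 members without a minimum the medians were 2.13, 1.73 and −1.04 in susi-2, susi-3 and the control. The rule used the IP libraries, so nothing is read from these counts beyond the levels. For 28 members the control IP was at least 2-fold below the control total library while both mutant IPs were at least 2-fold above their total libraries. With enough counts in all 3 genotypes it was 17 of 99 members, against 0.497% of all genes, and this too rests on the IP values that chose the members. The 28 include nurf-1, pph-4.1, gas-1, tbc-2, ced-5, lin-49, rbr-2 and eif-2Bepsilon.

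**Figure D5:**
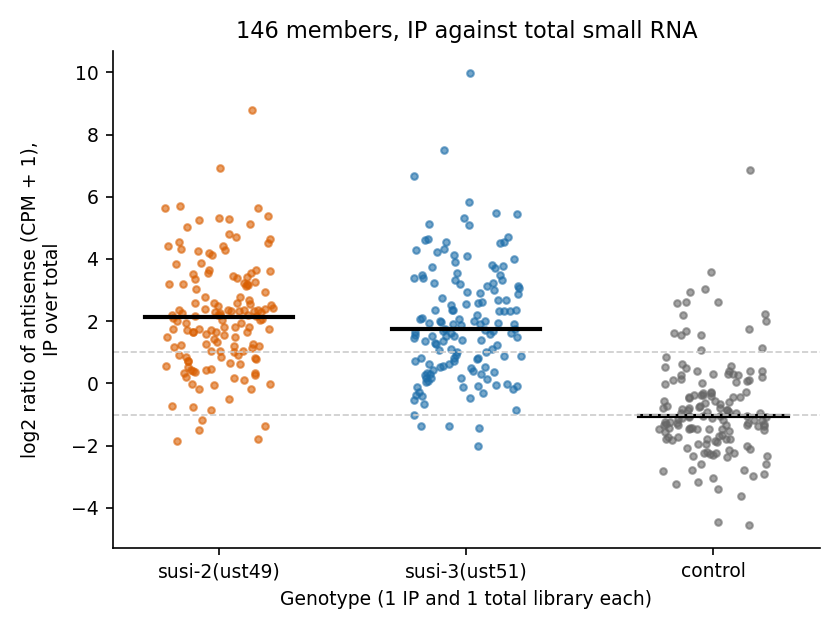
Log2 ratio of antisense (CPM + 1) in the NRDE-3 IP over total small RNA of the matching genotype for 146 members, with 1 point per gene, the median as a black bar and dashed lines at 2-fold. The medians are 2.13 in susi-2, 1.73 in susi-3 and −1.04 in the control.

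Sense counts on the same genes, which the rule used only within the library total, were not higher over the members in the mutant IPs. Summed over the members, the ratio of sense CPM to the control was 0.741 in the susi-2 IP and 0.849 in the susi-3 IP, and 1.53 and 1.15 in total small RNA. The median log2 ratio of sense counts was −0.61 in the susi-2 IP, against −0.50 for all genes, and −0.30 in the susi-3 IP, against −0.36 for all genes. Of 124 members with enough sense counts, 2 were at least 2-fold higher and 25 lower in the susi-2 IP, against 4.54% and 16.9% of all genes. In the susi-3 IP 1 was higher and 6 were lower, against 3.22% and 9.04%. In total small RNA 10 of 108 members were at least 2-fold higher in sense counts and 0 lower in susi-2, against 15.7% and 8.59% of all genes, and 7 of 107 were higher and 2 lower in susi-3, against 10.3% and 8.02%. Per gene, the median share of antisense among all counts was 63.4% in the susi-2 IP and 58.3% in the susi-3 IP, against 11.18% in the control IP. These IP shares rest on the antisense counts that chose the members, so a higher share in the mutants was favoured by the rule. In total small RNA the median share was 31.7% in susi-2 and 36.6% in susi-3, against 50% in the control.

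Other members also had several transcript rows. Of the 146 members, 70 had 1 transcript row, 44 had 2 and 32 had at least 3. Among these 32, 5 had every row at least 2-fold higher in both IPs, wnk-1 with 22 rows, eef-2, unc-53, K06G5.1 and R12C12.6, and 16 had some rows higher in both and some in neither. Single rows had no count minimum, so with a pseudocount of 1 CPM a row of few counts can miss the threshold, and these 16 are not all alike. Row j of fbn-1, a homologue of fibrillin, had 108 antisense counts in the susi-2 IP and 166 in the susi-3 IP, against 14 in the control IP, and the other 9 rows of the gene had 166 and 150, against 132. In total small RNA row j had 2, 0 and 0 counts in susi-2, susi-3 and the control, and the other rows had 92, 68 and 143. The gene was thus over the minimum in total small RNA through the other rows. Rows a and b of lev-10 had 1021 and 1010 counts in the susi-2 and susi-3 IPs, against 34 in the control IP, and row e had 5 and 2, against 8. Both rows of alg-1 were high, with 4849 and 4795 counts in susi-2 and 1067 and 989 in susi-3, against 186 and 202 in the control IP. The higher counts of lev-10 in the mutant IPs thus lay in 2 of its 3 rows and those of alg-1 in both rows, while the rows of fbn-1 other than j held 166 of its counts in the susi-2 IP.

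Few neighbouring genes could be compared. In the RefSeq gene order of WBcel235, 141 members could be placed, and they had 269 neighbouring protein-coding genes that are not members. Of these, 29 had enough antisense counts in both IP pairs, and 2 were at least 2-fold higher in both, against 12% of the eligible protein-coding genes, paml-1 beside Y70G10A.3 and F07A11.5 beside din-1. The neighbours of nurf-1, F26H11.4 and kbp-3, had 4 and 6 antisense counts in the susi-2 IP and 3 and 1 in the susi-3 IP, against 1 and 3 in the control IP. Of the members themselves 1 pair adjoined, golg-5 and T23G11.7.

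Lists of related genes were set beside the members. Of 20 genes of NURF and other chromatin remodelling complexes, 16 had enough counts in the susi-2 IP pair, and 10 of those were at least 2-fold higher and 0 lower, against 45.8% and 5.34% of all genes, with a median log2 ratio of 1.16, against 0.92 for all genes. In the susi-3 IP 2 of 11 were higher and 0 lower, against 11.8% and 23% of all genes, with a median of −0.11, against −0.37 for all genes. The 2 were nurf-1 and bcl-7. isw-1, which encodes the ATPase of NURF, had 45 and 12 antisense counts in the susi-2 and susi-3 IPs, against 20 in the control IP. In total small RNA 0 of 18 remodelling genes were higher and 1 lower in susi-2, against 3.94% and 25% of all genes. In susi-3 0 of 17 were higher and 2 lower, against 5.48% and 18.5%.

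Among 19 Argonaute genes, 7 of 13 with enough counts passed 2-fold upwards in the susi-2 IP and 0 downwards, against 45.8% and 5.34% of all genes, and in the susi-3 IP 1 of 9 was higher, alg-1, and 5 were lower, against 11.8% and 23%. alg-2, the other microRNA Argonaute gene close to alg-1, had 446 antisense counts in the susi-2 IP and 43 in the susi-3 IP, against 35 in the control IP. It was thus high in the susi-2 IP alone. Of 25 genes of siRNA amplification and nuclear RNAi, 12 of 18 were higher in the susi-2 IP and 0 lower, and 0 of 11 were higher and 1 lower in the susi-3 IP, read against the same shares of all genes. None is a member. No lysosomal lipase or glutathione transferase gene is a member either, although lipl-4, with 643 and 796 antisense counts, and gst-33, with 482 and 764, were high in the susi-2 and susi-3 IPs and at 0 in the control IP. Both belonged to the genes that passed the IP thresholds but stayed under the minimum in total small RNA, whose median IP log2 ratios were 2.49 in susi-2 and 2.68 in susi-3.

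Markers of germline, muscle, intestine and neurons, 6 genes each, hold no member. Enough counts in the susi-3 IP pair were present for 3 germline, 4 muscle, 1 intestinal and 3 neuronal markers. Of them 0 passed 2-fold upwards, against 11.8% of all genes. Passing it downwards there were 1 germline, 1 muscle, 0 intestinal and 1 neuronal marker, against 23% of all genes. In the susi-2 IP 4 of 6 germline, 3 of 6 muscle, 0 of 2 intestinal and 1 of 3 neuronal markers were higher, beside 45.8% of all genes. Lower there was 1 muscle marker, beside 5.34% of all genes. In total small RNA the 1 muscle marker with enough counts was higher in each mutant, beside 3.94% of all genes in susi-2 and 5.48% in susi-3. Lower were 3 of 3 neuronal and 1 of 1 intestinal markers in susi-2, beside 25% of all genes, and 2 of 3 neuronal markers in susi-3, beside 18.5%. Of 6 germline markers 0 were called in either total pair, beside the same shares of all genes. Summed antisense levels were 118, 36.1 and 74.8 CPM for germline, 78.4, 36.4 and 97.3 CPM for muscle, 15.2, 8.41 and 10.3 CPM for intestine and 231, 81.3 and 188 CPM for neurons in the susi-2, susi-3 and control IPs. No marker of these lists was at 0 in an IP library. The part of tissue composition in the members' values was not tested.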

How the data were processed

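Small RNA of 17 to 30 nt from L3 larvae was sequenced as total small RNA or after elution from an anti-FLAG IP, with phosphatase and then polynucleotide kinase treatment of all samples, per the labels' protocols. The deposited tables hold the authors' raw read counts on each strand of 56377 transcript-level features, per the file headers. The submitters' processing notes name Bowtie2. Settings, genome build and the treatment of reads matching several places were not given in the sources used here. Multiply matching reads could raise several genes or rows at once.

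Features were summed to 45510 genes by the gene identifier in the tables (43622 matched to the table of names). 3 features without a gene, at most 122 counts per library, were left out, and 5 blank cells were read as 0. Antisense CPM used all sense plus antisense counts, with a pseudocount of 1 CPM. Genes with at least 50 counts over a pair were called higher or lower at 2-fold, which describes libraries and is no test. A count of 0 allows up to 3 counts. Ratios have exact 95% Clopper-Pearson conditional intervals. The IP thresholds were tried on simulated counts with counting error only, without the minimum in total small RNA. Changes were planted only in genes with control IP counts well above the members' median of 20.5. The simulation therefore does not cover most members. Alternatives were other pseudocounts, scalings (TMM from edgeR 4.0.16) and minimums. Python 3.11.15, pandas 2.3.3, scipy 1.17.1 and R 4.3.3 were used.

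The members and lists were chosen with earlier results of these data known, and the role groups after the values were seen. Genes given in full were nurf-1, the 12 members highest by the smaller IP ratio, the 8 with most IP counts, the 6 highest and 6 lowest in total small RNA, and 4 on each side of the threshold. Other genes were picked as examples after their values were seen. Names and gene order come from RefSeq tables of WBcel235, and no sequences are printed.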

Additional observations from a re-analysis of the deposited data

Results flagged for a closer look

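In both mutants 9 members passed 2-fold upwards in the IP, as the choice of members fixes, and 2-fold downwards in total small RNA. With enough counts in both total pairs they were 6 of 91 members, or 6.59%, against 8.42% of all genes. The difference between the fractions was not tested, since each group has 1 library. The total log2 ratios in susi-2 and susi-3 were −2.99 and −3.06 for Y70G10A.3, −2.61 and −1.55 for T14G8.3, and −1.98 and −1.14 for gas-1. They were −1.27 and −1.41 for Y53G8AM.8, −1.22 and −1.27 for hcf-1, and −1.29 and −1.55 for D1007.8. On few counts, and over the minimum of 10 counts through the control total library alone, which favours a lower value in the mutants, they were −1.25 and −1.12 for ZK1053.2, −1.06 and −1.45 for F42A6.1, and −1.21 and −1.29 for C25G4.7. The IP log2 ratios of the same genes were 4.12 in susi-2 and 4.36 in susi-3 for gas-1, 2.61 and 2.21 for Y70G10A.3, and 2.96 and 1.72 for T14G8.3. Both mutants are set against the same 2 control libraries, so the agreement of susi-2 and susi-3 is not independent. With TMM scaling 1 of the 9, Y70G10A.3, stayed at least 2-fold lower in both total pairs, at −2.30 and −2.43.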

How the results depend on the processing

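The 146 members became 52 with a pseudocount of 10 CPM, 47 with at least 200 counts per IP pair, 73 with over 50 counts in a total library, 265 with no such minimum and 67 at 4-fold. Other settings gave 100 (TMM) to 208 genes. TMM kept 79 of the 146, and sense plus antisense counts kept 46. Leaving out clec-72, chosen after the data were seen, moved the summed IP ratios of 7.36 and 8.89 to 10.6 and 10.5. Also chosen after the data were seen, the susi-2 against the susi-3 IP had 75 members higher in susi-2, 11 at least 2-fold, and 0 at least 2-fold higher in susi-3. These became 11, 5 and 79 with CPM over antisense counts and 6, 4 and 115 with TMM, and 5 were at least 2-fold higher in susi-2 with a pseudocount of 10 CPM. In total small RNA of susi-2, 3 higher and 14 lower members with a median of −0.51 became 3 lower and −0.23 with a pseudocount of 10 CPM, 5 higher, 8 lower and −0.022 with CPM over antisense counts, and 6 higher, 3 lower and 0.18 with TMM. In susi-3, 3 higher and 18 lower with −0.57 became 29 lower with a pseudocount of 0.1 CPM, 2 lower and −0.24 with 10 CPM, 6 higher, 8 lower and −0.29 with antisense CPM, and 7 higher, 1 lower and 0.053 with TMM. The sign of these medians and the order of the mutant IPs thus depend on scaling. Among genes named by rule, no log2 ratio past the threshold changed sign in any of the 5 scalings and pseudocounts. Of their total log2 ratios under the threshold, 20 changed sign with TMM and 10 with CPM over antisense counts. Of their IP log2 ratios under it, 1 changed sign with TMM. No paired analysis was possible because each group has 1 library. Without replicates no library could be left out.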
